A study of Mus musculus with 33 samples.

Results

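The 6 genes described here encode regulators of Hsp70: St13, Hspbp1, Bag1, Bag3, Bag4 and Stub1. They were chosen by name, with earlier results of these data known, among 21631 protein-coding genes of the autosomes and the X chromosome. Every peak with its summit inside one of them or within 10 kb of it was taken from the 15 peak lists of the series. That gave 29 peaks out of 45686. They came from mouse embryonic fibroblasts (MEFs, fibroblasts grown from embryos) of the 129Sv.BALB/c background, examined by chromatin immunoprecipitation and sequencing (ChIP-seq). HSF1-/- MEFs, which lack the heat shock transcription factor HSF1, gave 6 lists, from the antibodies called CS (from Cell Signaling) and MM, each used on unheated cells and on cells heated for 12 or 60 min. Wild type MEFs gave 6 lists with the same antibodies at the same times and 3 lists with an antibody against SRF. There was 1 list for each of these combinations and so no replicate error between lists. The file headers call the CS and MM experiment an Hsf1 ChIP-seq. Neither the heat shock temperature nor the origin of the cells is stated in the labels.

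Hsp70 proteins hold unfolded proteins in a cycle driven by ATP: J-domain proteins stimulate ATP hydrolysis and so the tight binding of a client, and nucleotide exchange factors replace ADP with ATP and so release it. St13, also called Hip, binds the ADP state of Hsp70 and slows release. Hspbp1 and the BAG domain proteins Bag1, Bag3 and Bag4 are exchange factors, and several of them also steer Hsp70 clients: Bag1 towards the proteasome and Bag3, with small heat shock proteins, towards autophagy. Stub1, also called CHIP, is a ubiquitin ligase that binds Hsp70 and marks its clients for degradation. HSF1 binds arrays of the unit nGAAn in alternating orientation, and Hsp70 genes are among its best known targets.

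Promoter sequence of RefSeq (build GRCm38.p6, the primary assembly of mm10) was on hand for 4 of the 6 genes, Bag3, Hspbp1, Bag1 and Stub1, and for Xpnpep3, the neighbour across from St13. Each window runs from 250 bases before to 50 bases after an annotated start site and is written 5′ to 3′ on the gene's strand. These 5 are shown because they set promoters under wild type peaks (Bag3, Hspbp1, Xpnpep3) beside promoters with none (Bag1, Stub1). Capitals mark adjacent units (GAANNTTC or TTCNNGAA), which are spaced as in an HSF1 array, or a gapped pair. The gapped pair is a TTC and a GAA, in either order, with 7 bases of any kind between them. In an alternating array, units 7 bases apart have the same orientation, so this gapped pair is not an array spacing. Gapped pairs of the same orientation were not searched for. Both strands are covered, since each pattern is its own reverse complement.
Bag3: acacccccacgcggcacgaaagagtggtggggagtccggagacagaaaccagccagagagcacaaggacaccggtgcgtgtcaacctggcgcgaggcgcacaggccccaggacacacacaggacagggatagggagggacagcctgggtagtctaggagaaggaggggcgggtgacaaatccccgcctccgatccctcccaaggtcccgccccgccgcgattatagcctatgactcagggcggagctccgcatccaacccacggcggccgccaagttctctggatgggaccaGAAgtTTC
Hspbp1: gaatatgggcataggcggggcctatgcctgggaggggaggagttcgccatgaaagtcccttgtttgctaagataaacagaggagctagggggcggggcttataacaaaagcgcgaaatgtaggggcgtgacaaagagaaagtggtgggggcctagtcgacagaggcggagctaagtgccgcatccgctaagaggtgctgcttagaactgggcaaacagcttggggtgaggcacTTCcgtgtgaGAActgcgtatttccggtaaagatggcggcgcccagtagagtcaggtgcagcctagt
Xpnpep3: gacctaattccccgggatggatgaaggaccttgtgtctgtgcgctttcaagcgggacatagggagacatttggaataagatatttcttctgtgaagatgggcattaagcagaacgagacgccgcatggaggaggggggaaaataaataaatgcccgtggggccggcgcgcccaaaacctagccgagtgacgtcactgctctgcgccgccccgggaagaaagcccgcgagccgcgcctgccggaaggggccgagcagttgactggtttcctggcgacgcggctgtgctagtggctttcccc
Bag1: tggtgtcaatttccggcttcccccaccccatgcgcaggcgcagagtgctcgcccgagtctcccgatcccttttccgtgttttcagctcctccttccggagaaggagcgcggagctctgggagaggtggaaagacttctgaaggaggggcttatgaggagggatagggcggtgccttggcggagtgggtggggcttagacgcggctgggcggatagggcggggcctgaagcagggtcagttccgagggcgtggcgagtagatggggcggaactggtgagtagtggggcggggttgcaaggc
Stub1: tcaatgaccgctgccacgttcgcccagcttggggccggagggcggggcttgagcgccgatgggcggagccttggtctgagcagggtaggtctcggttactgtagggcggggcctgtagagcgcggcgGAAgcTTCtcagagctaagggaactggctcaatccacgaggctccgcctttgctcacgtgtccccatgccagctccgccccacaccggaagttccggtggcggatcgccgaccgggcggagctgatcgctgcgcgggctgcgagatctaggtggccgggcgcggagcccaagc
The Bag3 window is chr7:128523333-128523632 on the + strand, and that of Hspbp1 is chr7:4684932-4685231 on the - strand. The Xpnpep3 window is chr15:81399888-81400187 on the + strand. The Bag1 window is chr4:40948245-40948544 and the Stub1 window chr17:25832870-25833169, both on the - strand.

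Wild type cells divided the 6 genes evenly. St13 had a region found by both CS and MM, called a shared region here, at all 3 times. Hspbp1 and Bag3 had shared regions at 12 and 60 min, and neither antibody had a peak there in unheated cells. Bag1, Bag4 and Stub1 had no CS or MM peak within 10 kb in any of the 6 wild type lists. In order of time, the genes with a shared region numbered 1, 3 and 3 of the 6, while 0.532%, 5.33% and 11.2% of all protein-coding genes had one at these times. Those with a peak of either antibody were the same genes (1, 3 and 3), against 2.2%, 8.27% and 17.9% of all protein-coding genes. The count of 3 held at 12 and 60 min with windows of 1, 5 and 50 kb in place of 10 kb. With a single list per condition, no test compared these counts, and the genes were chosen with earlier results of these data known.

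**Figure D1:**
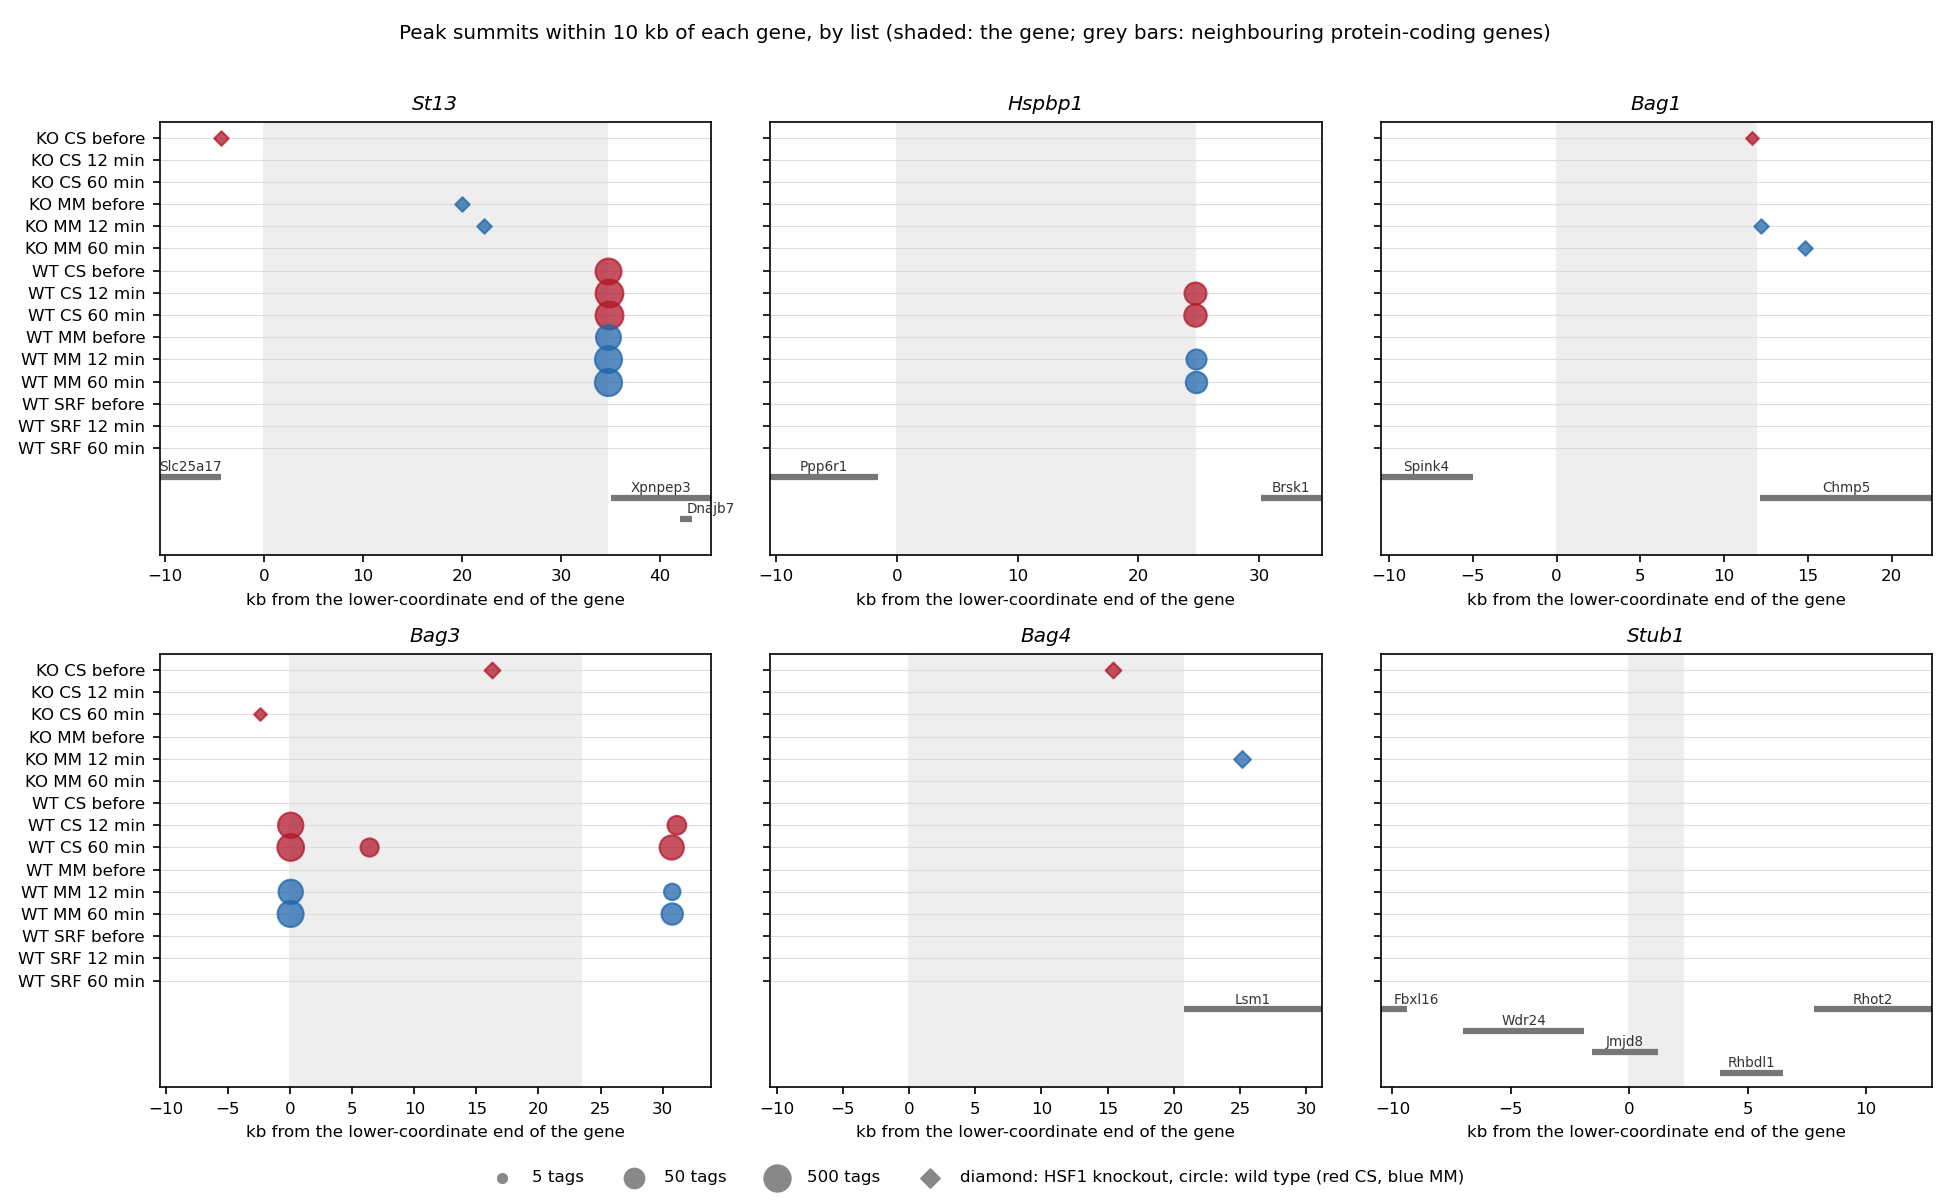
Position of every peak summit within 10 kb of the 6 genes, in kb from the lower-coordinate end of each gene (x axis), by peak list (y axis: KO, HSF1 knockout; WT, wild type). Point area grows with the log of the tags, shading is the gene, and grey bars are neighbouring protein-coding genes. Wild type circles stack at 1 end of St13, Hspbp1 and Bag3. Bag3 also has circles beyond its other end, of 21 to 235 tags, and 1 well inside the gene. The knockout diamonds, of 5 to 8 tags, are scattered.

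Depth differed between the lists. Distinct tags (1 kept per position) numbered 5183722 to 15582874 in the knockout libraries and 14013456 to 26301665 in the wild type CS and MM libraries. The knockout peaks were called without a control library and the wild type peaks against IgG, so tags and ranks are given within each list and peak numbers of the genotypes are not on 1 scale. The fragment length in the file headers also differed. In order of time it was 45, 128 and 161 bp for wild type CS. For wild type MM it was 40, 107 and 114 bp. Widths and tags of peaks were not adjusted for it, so a change of either with heat was not tested. The lists give no value where no peak was called. The lowest peak of each wild type list had 16 to 20 CS tags or 6 to 11 MM tags. The SRF libraries held 750970, 1548276 and 949176 distinct tags in order of time and 64, 68 and 18 peaks, and 0 of these peaks lay within 10 kb of the 6 genes, or within 50 kb. Among all protein-coding genes 0.194%, 0.254% and 0.0878% had an SRF peak within 10 kb, so a count of 0 among 6 genes is close to that level.

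St13 carried the peak with the most tags of the 6 genes in every wild type list. In order of time it held 439, 944 and 977 CS tags. The MM peak held 305, 681 and 747 tags. Before heat shock this was the first of 180 CS peaks and the first of 449 MM peaks by tags. At 12 min it ranked 4 of 1781 (CS) and 5 of 1927 (MM), and at 60 min 12 of 4773 and 9 of 4614. In every list it stayed among the highest by tags, although lists of such different lengths show no change of rank with time.

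The 6 St13 summits fell within 32 bp of each other, 119 to 151 bp beyond the upper end of the gene (chromosome 15, 81365044 to 81399694). In order of time the CS peak was 794, 1665 and 1781 bp wide and the MM peak 793, 1336 and 1414 bp. Per 100 bp of peak the CS tags were 55.3, 56.7 and 54.9. The MM tags per 100 bp were 38.5, 51.0 and 52.8. At 60 min the shared region covered 81399032 to 81400812 and so also the start of Xpnpep3, a mitochondrial aminopeptidase gene whose annotated span begins 411 bp from that of St13. The summits lay 260 to 292 bp from Xpnpep3, which was farther than from St13 in all 6 lists. Dnajb7, a J-domain gene, was 7243 to 7275 bp away. A region between genes this close cannot be assigned to 1 of them by position. All 300 bases of the Xpnpep3 window printed above lay inside each St13 peak, with the summits 43 to 75 bp outside the window, and the window held none of the unit pairs searched for. The sequence under the summits themselves was not examined.

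The deposited false discovery rate (FDR) of the St13 peak differed by antibody and time. It was 100% for CS and 0% for MM before heat shock and 12.5% for CS and 0% for MM at 12 min. At 60 min both were 0%. Required at 5% or less in both lists, it removed St13 before heat shock and at 12 min, and left 0 and 2 of the 6 genes at those times. The share of all protein-coding genes under this FDR limit is not given here. The minus log10 of the p-value, at 90.6 (CS) and 106 (MM) before heat shock, was far past the cutoff.

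Hspbp1, a nucleotide exchange factor, had the lowest peak at a gene end of the 3 genes with shared regions. It held 105 CS and 58 MM tags at 12 min, ranks 498 of 1781 and 531 of 1927. At 60 min it held 127 CS and 88 MM tags, ranks 1087 of 4773 and 773 of 4614. These places are above the middle of each list and below those of St13 and the start of Bag3. The region at 60 min spanned 4684586 to 4685656 on chromosome 7, with widths of 1071 bp (CS) and 802 bp (MM), against 934 and 648 bp at 12 min. Its 4 summits fell within 44 bp of each other and 30 to 74 bp beyond the upper end of the gene (4660515 to 4685188).

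The annotated start site of the printed Hspbp1 window is 4684981, inside that span, and the summits lay 237 to 281 bp upstream of it. Each of the 4 peaks covered the whole window, and 1 summit (CS at 60 min) was inside it. The window held no adjacent pair. Its single match, a gapped TTC and GAA at positions -17 to -5 from the start site (the base at the site is +1), was 226 to 270 bp from the summits. The gapped pattern was chosen after the promoter sequences were seen, and its orientation is not that of an HSF1 array. A gapped pair, in either order, occurred in 15.4% of all 32619 promoter windows. Brsk1, a kinase gene 5374 to 5418 bp away, was the other protein-coding gene within 10 kb of the summits.

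Bag3, the exchange factor that works with small heat shock proteins in autophagy, had more than 1 peak. At its start the CS peak held 349 tags at 12 min and 591 at 60 min. The MM peak there held 244 and 452 tags. By tags these ranked 57 of 1781 (CS) and 42 of 1927 (MM) at 12 min, and 34 of 4773 and 32 of 4614 at 60 min. All 4 stood in the top 5% of their lists. The region at 60 min reached from 128522871 to 128524766 on chromosome 7, and the CS and MM peaks were 1896 and 1461 bp wide, against 1456 and 1222 bp at 12 min.

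The 4 summits at the Bag3 start lay 39 to 50 bp inside the gene (128523583 to 128546981), within 11 bp of each other. GAANNTTC, the only match in the printed window, occupied positions 43 to 50 after the start site (chromosome 7, 128523625 to 128523632). Its centre was 1.5 to 6.5 bp from the summits. This pattern was present in 7.91% of all promoter windows, and an adjacent pair in either order in 15.1%. No window of the 5 held 3 adjacent units in a row (a GAA, TTC and GAA, or a TTC, GAA and TTC, each 2 bases apart), which 0.607% of promoters had. Bases past position 50, where the Bag3 match ends, are not in the window and were not examined.

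A second Bag3 region lay beyond the other end of the gene, 7332 to 7746 bp past it. Its CS peak held 39 tags at 12 min and 235 at 60 min. The MM peak held 21 and 88 tags. At 12 min both were low in their lists (1484 of 1781 and 1592 of 1927), with an FDR of 10.7% (CS) and 47.9% (MM), and at 60 min they ranked 439 of 4773 and 773 of 4614 with an FDR of 0.39% and 0.25%. The CS and MM summits were 375 bp apart at 12 min and 39 bp apart at 60 min. At 60 min the region spanned 128553138 to 128555225, and its CS peak, at 2088 bp, was the widest of the 29 peaks. Apart from Bag3, the nearest annotated gene was the pseudogene Gm7258, 41046 to 41460 bp from the summits. A further place, 6402 bp inside the gene, had a CS peak of 33 tags at 60 min (rank 4146 of 4773, FDR 20.2%) and no MM peak.

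**Figure D2:**
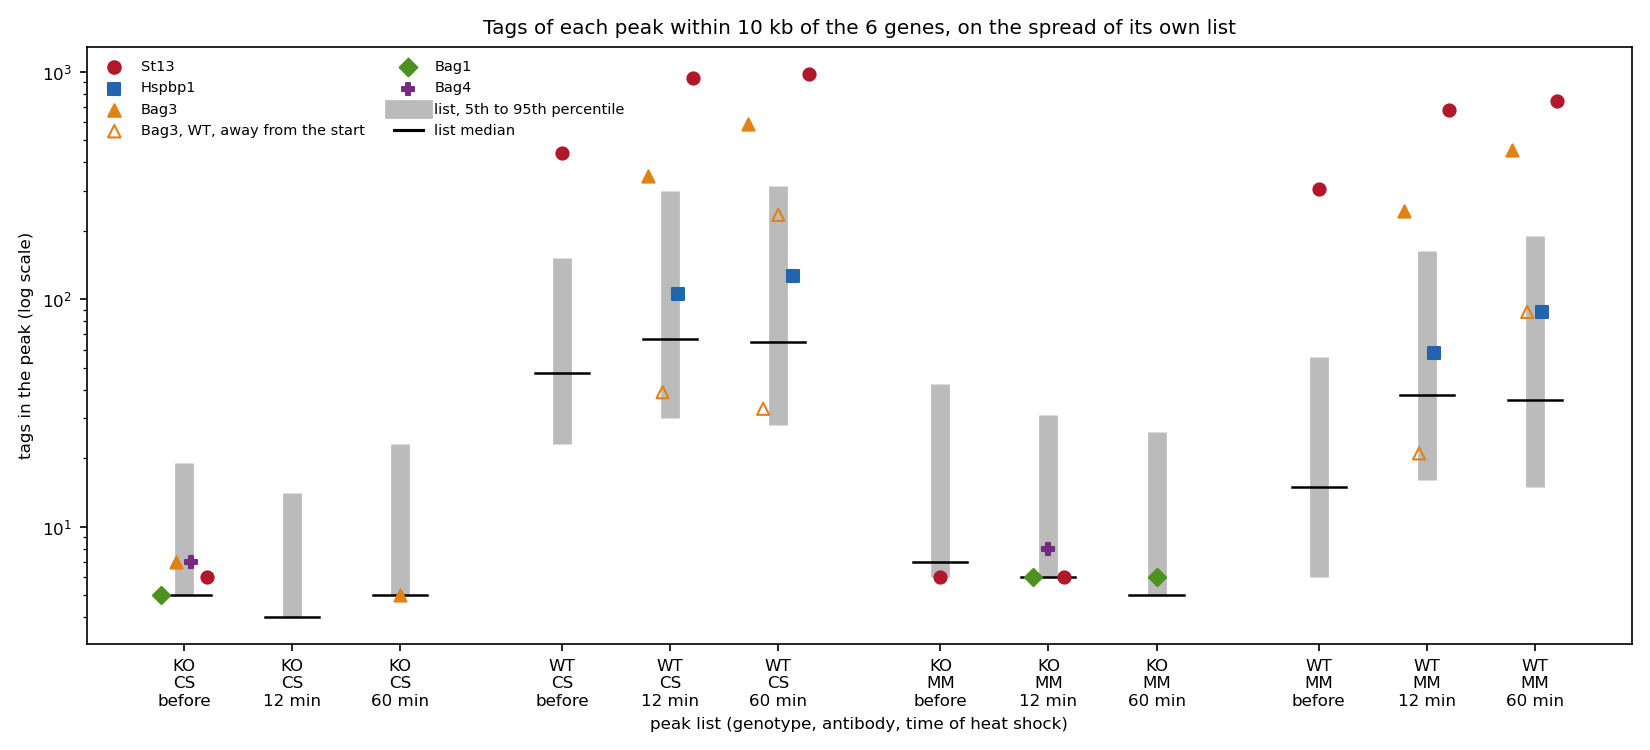
Tags of each peak within 10 kb of the 6 genes (y axis, log scale) in the 12 CS and MM lists (x axis; KO, HSF1 knockout; WT, wild type), with bars for the 5th to 95th percentile of all peaks of that list and a line for its median. St13 and the Bag3 start stand above the bar in each wild type list where they have a peak, Hspbp1 lies inside it, and the knockout points, at 5 to 8 tags, lie near the medians of 4 to 7 tags.

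Set side by side within the CS list of 60 min, tags per 100 bp of peak were 54.9 at St13, 31.2 at the Bag3 start and 11.9 at Hspbp1, and 11.3 at the Bag3 region beyond the end. In the MM list of that time they were 52.8, 30.9, 10.97 and 8.64. The order St13, Bag3 start, Hspbp1 was the same by tags in all 4 lists of 12 and 60 min. By fold enrichment it was another one: St13 ranked below the Bag3 start in each of these lists, at 879 against 264 of 4773 in the CS list of 60 min. The antibodies placed the summits close together. The distance between CS and MM summits was 0, 16 and 32 bp at St13 in order of time, 20 and 44 bp at Hspbp1 and 3 and 9 bp at the Bag3 start. Over all shared regions the median distance was 31, 20 and 19 bp.

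Bag1, Bag4 and Stub1 were next compared with these by their surroundings. The nearest wild type shared region to Bag1, which directs Hsp70 clients to the proteasome, was 214, 115 and 115 kb away in order of time. For Bag4, known as the silencer of death domains, the distances were 20554, 229 and 140 kb. For Stub1 they were 19740, 646 and 109 kb. The median protein-coding gene was 6723, 493 and 193 kb from its nearest region at these times. At 60 min all 3 were therefore nearer to a region than the median gene, yet none had one within 100 kb.

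With 3 genes on each side, no test was made of how the genes with a region differ from those without. St13, Hspbp1 and Bag3 span 34651, 24674 and 23399 bp, and Bag1, Bag4 and Stub1 span 11897, 20672 and 2286 bp, so the 3 genes with a region were the longer ones. A close neighbour was found on both sides of the divide: Xpnpep3 was 411 bp from St13, Chmp5, an ESCRT gene, 259 bp from Bag1, and Lsm1, a gene of mRNA decay, 109 bp from Bag4. Stub1 overlapped Jmjd8 and had 5 protein-coding genes within 10 kb, and Bag3 had 0, its nearest being Tial1 at 61857 bp. GC content of the printed windows under wild type peaks was 56.0% for Hspbp1, 59.0% for Xpnpep3 and 64.3% for Bag3. In those with none it was 64.3% for Bag1, the same as for Bag3, and 68.3% for Stub1, and the median of all promoters was 53.0%. The Stub1 window, with no wild type peak, held GAANNTTC at positions -123 to -116, the same pattern as the Bag3 window, and the Bag1 window held no match. A match is a description of the letters and not a binding site.

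The knockout lists were examined for signal of the antibodies without HSF1. A CS or MM peak lay within 10 kb of 4 of the 6 genes in unheated knockout cells (Bag1, Bag3, Bag4 and St13), 3 after 12 min (Bag1, Bag4 and St13) and 2 after 60 min (Bag1 and Bag3). Among all protein-coding genes 26.4%, 26.5% and 24.2% had such a peak at these times, and 48.0% had one in any of the 6 lists. The 10 knockout peaks had 5 to 8 tags and were 93 to 137 bp wide. Counted from the top of their own lists by tags, with ties given the best rank, they stood at the 13.8 to 52.9 percentile. Several of them nevertheless held the fewest tags of any peak in their list. Among CS peaks these were Bag1 before heat shock and Bag3 at 60 min, with 5 tags. Among MM peaks they were St13 before heat shock and Bag1 and St13 at 12 min, with 6 tags. None was found by both antibodies, which 2.37%, 2.01% and 2.55% of protein-coding genes had in the knockout. At a p of 1e-10 or less, 0 of the 6 genes had a knockout peak at any time, while in wild type 1, 3 and 3 did. Knockout p-values were obtained without a control library and wild type ones against IgG, so this limit is not equal in both genotypes. The shares of all protein-coding genes at that limit were 2.0%, 1.99% and 2.44% in the knockout and 0.305%, 3.39% and 8.63% in wild type.

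No knockout peak overlapped a wild type region of St13, Hspbp1 or Bag3. At St13 the nearest knockout summit was 12543 to 12551 bp from the region's summit. The 3 knockout peaks of St13 were a CS peak before heat shock, 4329 bp from the gene and 50 bp inside the end of Slc25a17, a peroxisomal carrier gene, and MM peaks inside St13 before heat shock and at 12 min, each of 6 tags. At the Bag3 start the nearest knockout summit, a CS peak of 5 tags at 60 min, was 2502 to 2507 bp away, 2459 bp before the gene. Bag3 also had a CS peak of 7 tags inside the gene before heat shock. Hspbp1 had no knockout peak within 50 kb.

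Bag1 and Bag4 had peaks in the knockout lists and in no wild type list. For Bag1 these were a CS peak of 5 tags 232 bp inside the upper end of the gene before heat shock, an MM peak of 6 tags 278 bp beyond that end at 12 min, and an MM peak of 6 tags 2942 bp beyond it at 60 min. The MM peak of 12 min lay 19 bp inside Chmp5. For Bag4 they were a CS peak of 7 tags inside the gene before heat shock and an MM peak of 8 tags at 12 min, 4474 bp from the gene and inside Lsm1. Each of these 5 peaks came from 1 antibody at 1 time, and no 2 of them overlapped. Stub1 had none in any list: the peaks nearest to it, MM peaks of 8 and 7 tags in the knockout at 12 min, were 11407 and 12145 bp away and so just outside the limit of 10 kb. Just inside it was the Bag3 region beyond the end, at 7746 bp by its farthest summit.

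**Figure D3:**
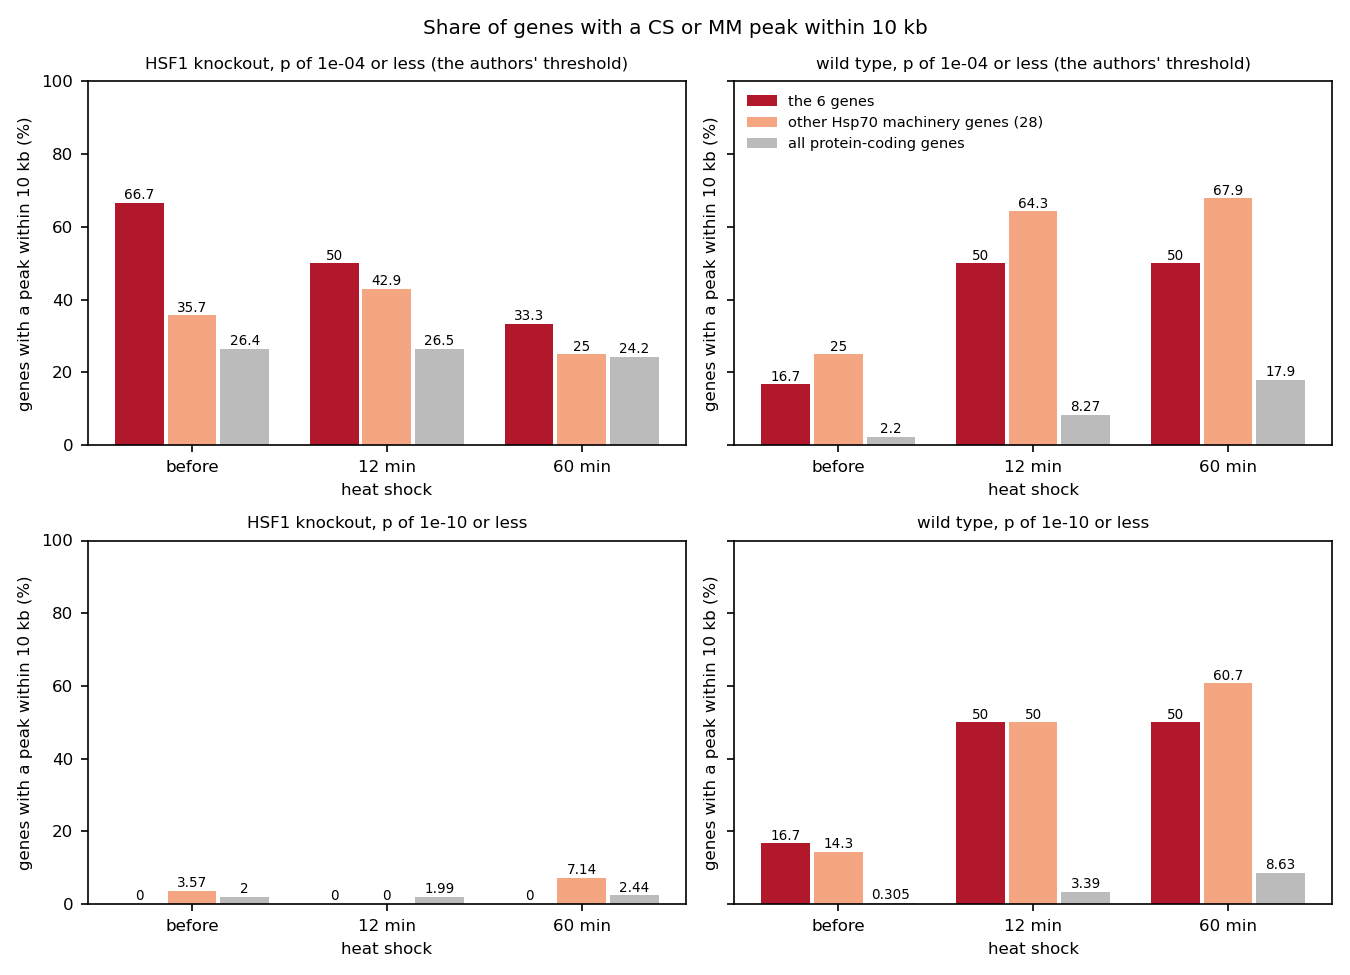
Percent of genes with a CS or MM peak within 10 kb (y axis) before heat shock and at 12 and 60 min (x axis), for the 6 genes, 28 other Hsp70 machinery genes and all 21631 protein-coding genes. Upper panels use the authors' threshold and lower panels a p of 1e-10 or less. Knockout peaks were called without a control and wild type peaks against IgG, so neither limit is equal in both genotypes. In the lower panels the 6 genes stand at 0% in the knockout (left), and 1, 3 and 3 of them pass in wild type (right).

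Other genes of the Hsp70 machinery were counted in the same way. Of 28 such genes, chosen with earlier results known, 4, 17 and 17 had a wild type shared region within 10 kb in order of time (14.3%, 60.7% and 60.7%). Among the exchange factors of the cytosol, all 3 Hsp110 genes (Hspa4, Hspa4l and Hsph1) had a region at 12 and 60 min, with Hsph1 already at 214 CS and 143 MM tags before heat shock. Of the 3 other BAG genes, Bag2 had one inside the gene at 12 min (150 CS and 98 MM tags) and 60 min (121 and 77 tags). For Bag5 a region of 75 CS and 45 MM tags lay 8457 bp from the gene at 60 min. Bag6 had none. With the 6 genes included, 3 of the 6 BAG genes thus had a region within 10 kb at 60 min (Bag2, Bag3 and Bag5), and none before heat shock.

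The exchange factors of other compartments, Grpel1 and Grpel2 of mitochondria and Sil1 and Hyou1 of the endoplasmic reticulum, had no wild type region at any time. Of the 8 J-domain genes, 1, 7 and 6 had one in order of time, where the share of all protein-coding genes was the 0.532%, 5.33% and 11.2% given above. Dnaja1 had one at each time, Dnaja4, Dnajb1, Dnajb2, Dnajb4 and Dnajb5 at 12 and 60 min, Dnajb6 at 12 min and Dnaja2 at none. Of the 6 Hsp70 genes 1, 4 and 4 had one: Hspa8 at each time and Hspa1a, Hspa1b and Hspa1l at 12 and 60 min, but not Hspa2 or Hspa14. The region with the most tags within 10 kb was the same for Hspa1a and Hspa1b, with 802 CS and 621 MM tags at 12 min. For Hspa1l the region with the most tags held 448 and 313. These are neighbouring genes, and a region within 10 kb of more than 1 of them is counted for each. Stip1, the adaptor between Hsp70 and Hsp90, had one at each time, with 130 CS and 68 MM tags before heat shock. In the clearance route of Bag3 and Stub1, Hspb8, the small heat shock protein that binds Bag3, had 164 CS and 130 MM tags at 12 min and 357 and 286 at 60 min. Ube4b, a ubiquitin chain elongation factor, and Sqstm1, an autophagy receptor, had no region. In the knockout, 10, 12 and 7 of the 28 genes had a CS or MM peak (35.7%, 42.9% and 25%), against 26.4%, 26.5% and 24.2% of all protein-coding genes, so the share at 60 min was near that of all genes.

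Genes with the same times of binding were ranked by how closely their percentile by tags followed each of the 3 genes. Nearest to St13 over 6 lists, out of 111 candidates, was Hspa8, the constitutive Hsp70 (mean difference 0.226 percentile points), with 338, 1045 and 1156 CS tags in order of time. Hspd1 and Hspe1, the mitochondrial chaperonin genes that share a region, followed at 0.299 points. Nearest to Bag3 over 4 lists, out of 913, were Mrfap1 (0.196 points), Chrac1 (0.315 points) and Hspa4l, an Hsp110 exchange factor (0.337 points). Nearest to Hspbp1, out of 912, were genes that included Cenpf, a kinetochore gene (1.38 points), and Mrps33, a mitochondrial ribosome gene (2.31 points). The likeness is one of tag ranks alone.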

How the data were processed

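Of the 33 samples, 15 had a peak list; the other 18 (nascent RNA, IgG and input libraries) were not analysed here. Positions are on mm10, per the labels. Which aligner was used is not given in these sources. CS and MM peaks came from MACS 1.4.2 with the p-value limited to 1e-04, using IgG as control and files named as 2 merged replicates in wild type, and no control and no named merge in the knockout, per the file headers. SRF peaks were called with MACS 2.0.9 against IgG, per the file headers. Each CS or MM peak carries a tag count, a score made from the log10 of its p-value and a fold enrichment (a ratio), as deposited by the authors. Wild type CS and MM peaks also carry an FDR in percent, as deposited. SRF peaks carry a pileup signal and the -log10 of the p-value and q-value, as deposited by the authors.

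Overlapping CS and MM peaks (at least 1 bp, same genotype and same time) formed a shared region, whose summit was set midway between the summits of the highest CS and the highest MM peak. Distances run from a summit to the gene's span in the GRCm38.p6 RefSeq table, which gives no exons. Ranks are by tags, with ties given the best rank. Neither the cell type nor the loss of HSF1 could be checked, since peak lists hold no expression. All members, the 28 Hsp70 machinery genes, all protein-coding genes within 10 kb of a summit at a member and the 3 genes most alike were named, except 1 gene that is not reported here. Members, lists and settings were chosen with earlier results of these data known, and the gapped unit pairs after the promoter sequences were seen. Promoter windows of chromosome Y were left out. The counting was tested on simulated peaks. Python 3.11.15 and pandas 2.3.3 were used.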

Additional observations from a re-analysis of the deposited data

How the results depend on the processing

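The numbers of genes with a wild type shared region (1, 3 and 3 of 6) were the same at 1, 5 and 50 kb, with p of 1e-10 or less, with CS or MM alone, with 50% of both peaks overlapping, with any base of the region in the window and without regions under a knockout peak. With an FDR of 5% or less they were 0, 2 and 3. The share of all protein-coding genes at that FDR limit is not given here, so these counts have no background beside them. Knockout counts (4, 3 and 2) fell to 0 at each time with p of 1e-10 or less and with both antibodies required. In order of time they were 4, 2 and 0 within 1 kb and 5, 5 and 4 within 50 kb, and they were unchanged within 5 kb. Knockout shares of all protein-coding genes at these other distances are not given here. SRF counts were 0 at every distance. The median percentile by tags over a gene's lists, counted from the top, was 0.238 for St13 and 1.45 for Bag3. By fold enrichment it was 9.51 and 5.41, and by tags per bp 0.11 and 2.29, while for Hspbp1 it stayed between 20.2 and 26.8. The share of all protein-coding genes with a region was 1.3%, 12.0% and 23.8% within 50 kb. No paired analysis was possible because there was 1 list for each condition. A peak list gives no tags below its threshold, so signal under the lowest peaks of a list cannot be seen at any of the 6 genes.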

Other observations

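A further shared region lay before the start of Bag3, outside the distance used above. Its peaks held 38 CS and 18 MM tags at 12 min and 43 CS and 29 MM tags at 60 min, ranks 1510 of 1781, 1725 of 1927, 3481 of 4773 and 2842 of 4614. Wild type summits there lay 49171 to 49236 bp from the gene, and a knockout MM peak of 6 tags at 12 min was 48217 bp from it. All 4 of these wild type summits lay inside Gm32816, another annotated gene.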
